A study of Mus musculus with 20 samples.

Results

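Arg1, Arg2, Nos2, Chi3l3, Retnla, Il4ra, Il10 and Msr1 are 8 genes of arginine use and alternative activation in macrophages, taken by symbol from a table of raw counts for 23329 gene symbols in 20 mouse RNA-seq libraries. All 8 were among the 15363 genes that passed the filter on low counts, though genes such as Retnla and Il10 passed only through the groups where they were high, being near 0 in others. The libraries come from myeloid cells sorted from 2 kinds of mouse glioma, from normal brain and from blood, all of strain C57BL/6. GEMM tumours were made by injecting a mixture of DF1 cells carrying RCAS-PDGFB-HA and RCAS:shP53 into the right frontal cortex of Flt3:Cre Rosa26:mTmG mice at 6 weeks of age, and GL261 is an established mouse glioma line. In that reporter, cells that descend from Flt3-expressing bone marrow progenitors turn from red to green, and cells in which Cre did not act stay red. From each of 3 tumours per model came 1 library of tumour-associated microglia (MG; CD45+ CD11b+ Ly6C- Ly6G- GFP- TdTomato+) and 1 of tumour-associated bone marrow-derived macrophages (BMDM; the same gate but GFP+ TdTomato-). The other groups were microglia of normal brain (n = 3) and Ly6C-high blood monocytes (n = 5). The labels repeat 1 protocol for every sample, which puts glioma injections at 5 to 6 weeks of age. The genotype of the GL261, normal brain and blood mice, the ages of the normal brain and blood mice, and the cell number injected for GL261 remain unstated in the sources used here. Whether monocytes were sorted from 1 mouse or a pool is also not given. The tumours are named by the numbers in their titles: 68702, BB30101 and BB30105 for GEMM, and 80766, 80767 and 80769 for GL261.

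Macrophages that meet interleukin 4 or interleukin 13 signal through a receptor that contains the chain encoded by Il4ra, which activates the transcription factor STAT6. In mouse macrophages this induces Arg1, Chi3l3 and Retnla together, a state called alternative activation. Arginase 1 turns arginine into ornithine and urea, while the inducible nitric oxide synthase encoded by Nos2, a gene of classical activation by interferon gamma and microbial products, turns the same amino acid into nitric oxide. Arg2 encodes the mitochondrial arginase. Il10 encodes a cytokine that restrains inflammation, and Msr1 encodes a class A scavenger receptor that takes up modified lipoproteins and bacterial debris. In tumours, myeloid arginase is known for drawing down arginine that T cells need.

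Total counts were 18113450 to 36297826 per library in the tumour and normal brain groups and only 5077787 to 7801073 in monocytes, where precision for low genes is poorest. Levels are given as CPM, which relate a gene's counts to the library total, here with totals adjusted by TMM factors. The 7 microglia markers summed to 31258 to 35564 CPM in normal MG, 13433 to 21333 in GEMM MG, and 2032 to 7564 in GL261 MG. In GEMM BMDM they summed to 3239 to 6966 CPM, in monocytes to 784 to 1251, and in GL261 BMDM to 730 to 1570. The 6 monocyte markers summed to 3624 to 4671 CPM in monocytes, 260 to 704 in BMDM, 23.7 to 101 in tumour MG and 8.46 to 10.6 in normal MG. The GL261 MG library 80769 stood apart from the other GL261 MG libraries, with microglia markers at 2032 CPM against 7564 and 6227 and monocyte markers at 101 against 40.4 and 30.4. Markers of glioma cells or oligodendrocyte precursors summed to 392 to 836 CPM in GL261 MG, 130 to 189 in MG of GEMM tumours, 157 to 356 in GL261 BMDM, 14.6 to 87.0 in BMDM of GEMM tumours and no more than 4.83 in normal MG and blood. Over all libraries, T cell markers summed to at most 65.4 CPM, neuron markers to 25.8, red cell markers to 98.4, endothelial markers to 336, astrocyte markers to 471 (in normal MG) and oligodendrocyte markers to 562 (in monocytes). For the 8 genes, GL261 calls that changed without tumour 80769 are given with and without it. Other GL261 results include that tumour unless stated. Monocyte libraries held Xist at 142 to 645 CPM and Ddx3y at no more than 2.76, the reverse of every other group, so comparisons with monocytes also compare sexes, and sex and cell type cannot be told apart. In bulk samples like these, fewer cells of a type and less RNA per cell cannot be told apart.

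**Figure D1:**
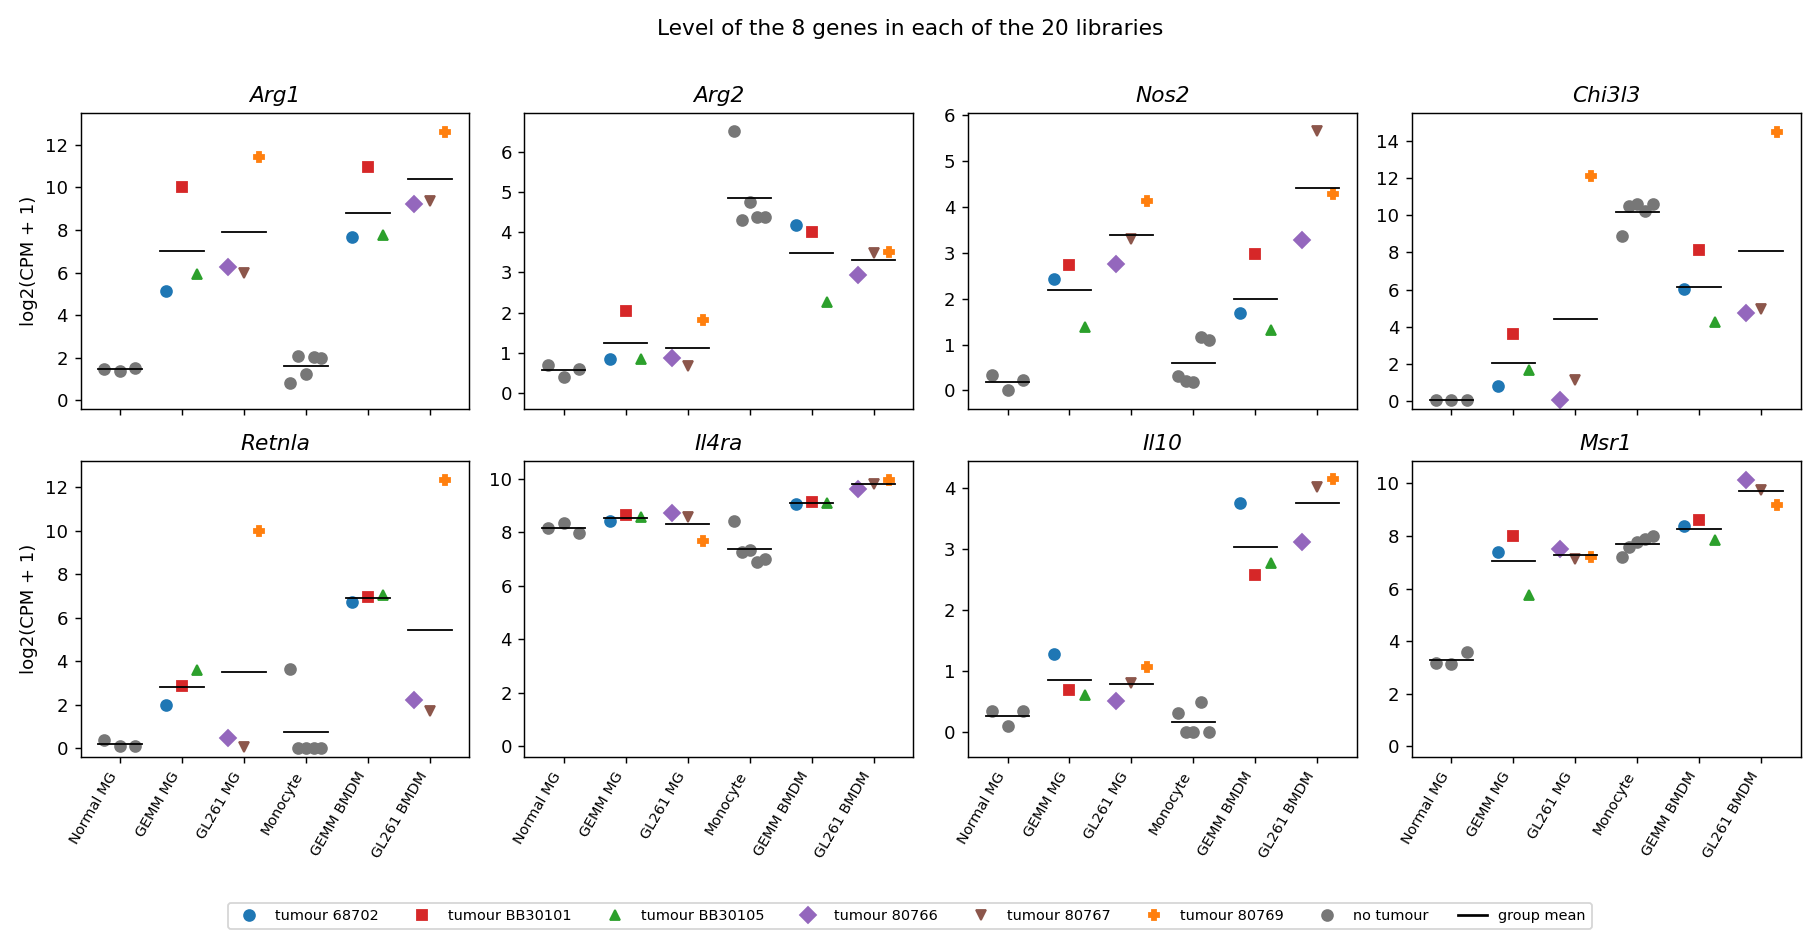
Level of each gene in every library, as log2(CPM + 1) on the vertical axis, with 1 panel per gene, 1 point per library and a bar at each group's mean of these log values. Symbols mark the tumour; Arg1 in tumours BB30101 and 80769 lies above the other tumours of the same model in both MG and BMDM, and Chi3l3 and Retnla in GL261 are high in tumour 80769 and near the bottom of the axis in the MG of the others.

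Arg1 (chromosome 10, 24915221 to 24927484 on the minus strand of GRCm38, with 7 merged exons of 2228 bases) was nearly silent outside tumours. It was at 1.81, 1.61 and 1.85 CPM in the normal MG libraries and at 0.754, 3.27, 1.34, 3.09 and 3.00 CPM in the monocyte libraries. In GEMM MG it was at 34.1 (68702), 1032 (BB30101) and 60.7 CPM (BB30105), and in GEMM BMDM at 201, 1997 and 220 CPM in the same order. GL261 MG libraries had Arg1 at 74.8 (80766), 62.3 (80767) and 2790 CPM (80769), and GL261 BMDM libraries at 597, 659 and 6265 CPM. Every tumour library thus lay above every normal brain and blood library, and the lowest tumour library was GEMM MG 68702. The groups of 1 cell type overlapped between models, and the tumour MG and BMDM groups of each model overlapped with each other, because tumours of 1 model differed from each other by 9.93-fold to 44.8-fold. Within each tumour the BMDM library was the higher. In GL261 BMDM 80769 Arg1 took 0.610% of all counts and was the 14th most counted gene of that library.

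Arg2 (chromosome 12, 79130777 to 79156301, plus strand), the mitochondrial isoform, had another pattern, with its highest levels in blood. Monocyte libraries were at 90.8, 18.7, 26.1, 19.8 and 19.9 CPM, the first of these being library 64817. GEMM BMDM were at 17.2, 15.0 and 3.81 CPM and GL261 BMDM at 6.70, 10.2 and 10.3 CPM. Tumour MG ranged from 0.575 to 3.09 CPM and normal MG from 0.313 to 0.605 CPM. The BMDM libraries lay between blood and microglia, above all tumour MG libraries and below all monocyte libraries. Genes annotated on the opposite strand overlap Arg2 (Vti1b and Gm48780), and since no strand setting of the counting is given in the sources used here, reads of Arg2 and of these genes may not have been told apart.

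Nos2 (chromosome 11, 78920787 to 78960254, plus strand) was low in all groups, with the highest group means in GL261. BMDM of GL261 were at 8.72, 49.2 and 18.3 CPM and MG of GL261 at 5.70, 8.84 and 16.4 CPM. GEMM BMDM were at 2.21, 6.83 and 1.49 CPM and GEMM MG at 4.38, 5.65 and 1.59 CPM. Normal MG did not exceed 0.269 CPM, and monocytes ranged from 0.134 to 1.24 CPM. MG and BMDM overlapped in each model. Tumour BB30101 had the highest Nos2 of GEMM in both cell types, but in GL261 BMDM the highest library was 80767.

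Chi3l3 (named Chil3 in the annotation, chromosome 3, 106147554 to 106167564, minus strand), which encodes a secreted chitinase-like protein also called Ym1, was a gene of blood monocytes and of 1 GL261 tumour. Monocytes were at 468, 1461, 1526, 1186 and 1562 CPM. GEMM BMDM were at 64.2, 279 and 18.5 CPM and GEMM MG at 0.788, 11.3 and 2.21 CPM. The GL261 libraries were at 26.0, 30.3 and 22717 CPM for BMDM and at 0.0429, 1.24 and 4421 CPM for MG. In tumour 80769 Chi3l3 was the most counted gene of the BMDM library, with 2.21% of its counts, and the third of the MG library, with 0.564%. BMDM of the other GL261 tumours lay within the range of GEMM BMDM, and normal MG did not exceed 0.0686 CPM. Chi3l3 has a near-identical neighbour, Chi3l4, whose reads it may share, so the values of both are uncertain. In tumour 80769 Chi3l4 was at 177 CPM in BMDM and 53.4 CPM in MG, and at no more than 2.06 CPM in any other library, monocytes included. Neutrophils also express Chi3l3, and the 13 neutrophil markers summed to 202 CPM in GL261 BMDM 80769 against 203 and 185 in the other GL261 BMDM libraries, while in monocytes they ranged from 2192 to 25644 CPM. In GEMM BMDM they summed to 2322 (68702), 277 (BB30101) and 200 CPM (BB30105). Monocyte Chi3l3 was at 1186 and 1562 CPM in the libraries with 2227 and 2192 CPM of neutrophil markers, and at 468 to 1526 CPM in the others. The part of these markers in Chi3l3 was not tested.

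Retnla (chromosome 16, 48842551 to 48844461, plus strand), which encodes the secreted protein FIZZ1, separated the models in another way. All GEMM BMDM libraries expressed it, at 103, 123 and 132 CPM, while GEMM MG were at 2.90, 6.26 and 11.2 CPM. The GL261 libraries had 3.68, 2.27 and 5189 CPM in BMDM and 0.386, 0.0442 and 1000 CPM in MG. Tumour 80769 was again far above the others, but the remaining GL261 BMDM libraries lay below all GEMM BMDM libraries. Retnla was at 0 counts in 4 of 5 monocyte libraries, which allows up to 0.619 CPM in the shallowest, and at 11.6 CPM in library 64817. Normal MG did not exceed 0.302 CPM.

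Promoter sequence was sought for the 8 genes and for Chil4. It is printed below where a STAT-type motif was found, so that the motif can be seen. RefSeq promoter sequences of GRCm38.p6 were at hand for 3 of the 8 genes (Retnla, Chil3 and Il4ra) and for Chil4. The 250 bases before each RefSeq start were searched for TTCNNNNGAA, the spacing preferred by STAT6, and for TTCNNNGAA, the spacing shared by most STAT factors. Each motif reads the same on both strands. Of 32851 promoters in the table, 5.85% held the first and 7.02% the second. Retnla held TTCNNNNGAA 145 bases before its start, Chil3 held TTCNNNGAA 172 bases before its start and Chil4 the same 9 bases 200 before its start, while the window of Il4ra held neither. These matches are a description of the letters and were not tested for binding. Each line below is written 5′ to 3′ with the motif in capitals, and leaves out bases that an annotated exon covers.
Retnla plus strand chr16:48842359-48842550: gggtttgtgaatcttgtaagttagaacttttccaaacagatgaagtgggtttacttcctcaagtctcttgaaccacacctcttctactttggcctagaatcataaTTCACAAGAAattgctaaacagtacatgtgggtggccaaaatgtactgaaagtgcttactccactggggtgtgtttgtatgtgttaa
Chil3 minus strand chr3:106167565-106167814: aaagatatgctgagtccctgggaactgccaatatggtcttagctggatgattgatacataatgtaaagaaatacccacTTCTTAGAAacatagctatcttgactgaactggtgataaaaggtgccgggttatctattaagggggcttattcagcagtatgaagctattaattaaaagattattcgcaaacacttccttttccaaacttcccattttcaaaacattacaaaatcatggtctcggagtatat
Chil4 minus strand chr3:106219508-106219729: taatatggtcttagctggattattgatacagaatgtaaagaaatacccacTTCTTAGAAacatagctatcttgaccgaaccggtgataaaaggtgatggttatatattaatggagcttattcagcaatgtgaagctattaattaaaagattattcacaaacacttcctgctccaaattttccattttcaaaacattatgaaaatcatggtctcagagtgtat

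Il4ra (chromosome 7, 125552120 to 125579474, plus strand), the receptor chain for both cytokines, was expressed in every library. GEMM BMDM were at 538, 562 and 541 CPM and GEMM MG at 345, 399 and 375 CPM. The GL261 values were 795, 890 and 1002 CPM in BMDM and 420, 378 and 201 CPM in MG. Normal MG were at 284, 329 and 251 CPM and monocytes at 346, 154, 161, 118 and 126 CPM. The BMDM groups lay above every MG and monocyte library, without overlap, and GL261 BMDM lay above GEMM BMDM. The GL261 MG library with the highest Arg1, 80769, had the lowest Il4ra of the tumour libraries. An antisense gene, Gm44876, overlaps Il4ra.

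Il10 (chromosome 1, 131019845 to 131024974, plus strand) was a low transcript, highest in BMDM. It was at 12.5, 4.92 and 5.85 CPM in GEMM BMDM and 7.61, 15.1 and 16.7 CPM in GL261 BMDM. GEMM MG were at 1.43, 0.612 and 0.531 CPM and GL261 MG at 0.429, 0.752 and 1.09 CPM. Normal MG did not exceed 0.274 CPM, and 3 of 5 monocyte libraries had no count. BMDM and MG did not overlap in either model. Msr1 (chromosome 8, 39581685 to 39642673, minus strand) was lowest in normal brain, at 8.03, 7.64 and 11.1 CPM. It was at 145 to 256 CPM in monocytes, 168, 254 and 53.7 in GEMM MG, 183, 139 and 147 in GL261 MG, 328, 390 and 232 in GEMM BMDM and 1130, 864 and 580 in GL261 BMDM. GL261 BMDM thus lay above all other libraries, and GEMM MG and BMDM overlapped.

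Levels can be set against each other between genes per kilobase (kb) of merged exons. On that scale normal MG had Il4ra at 48.0 ± 6.52 CPM per kb (SD, n = 3) and every other gene of the 8 at a mean of 1.41 or less. In monocytes (n = 5) Chi3l3 led at 760 ± 280 CPM per kb, ahead of Msr1 at 33.1 ± 6.82, Il4ra at 30.2 ± 15.7 and Arg2 at 24.6 ± 21.9, which did not differ from each other beyond their spread. In GEMM BMDM Retnla was at 199 ± 24.8, Il4ra at 91.1 ± 2.18 and Msr1 at 49.9 ± 12.5 CPM per kb, while Arg1, at 362 ± 463, and Chi3l3, at 73.9 ± 85.2, had an SD above their mean. In GL261 BMDM Il4ra was at 149 ± 17.3 and Msr1 at 135 ± 43.4 CPM per kb. Medians there were 296 for Arg1, 18.6 for Chi3l3 and 6.14 for Retnla, against highest values of 2812, 13920 and 8663. Nos2 stayed below Arg1 in every tumour group, with means of 0.796 to 5.76 CPM per kb against 169 to 1125.

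The first question was how MG and BMDM of 1 tumour differ. BMDM had the higher level of 7 of the 8 genes in all 6 tumours, and Nos2 was the exception. The share of all genes with BMDM higher in all 6 tumours was not computed, so this count has no background to be set against. As differences of log2(CPM + 1), BMDM minus MG, Chi3l3 had a median of 4.15 (range 2.36 to 5.19), Retnla 2.91 (1.65 to 4.74), Il10 2.53 (1.88 to 3.20) and Arg1 2.18 (0.95 to 3.38). Msr1 had a median of 2.04 (0.62 to 2.62), Arg2 2.03 (1.42 to 3.35) and Il4ra 0.78 (0.49 to 2.31). Nos2 was higher in BMDM in 4 of 6 tumours, with differences from −0.75 to 2.35 and a median of 0.19. These differences are a description without a test.

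**Figure D2:**
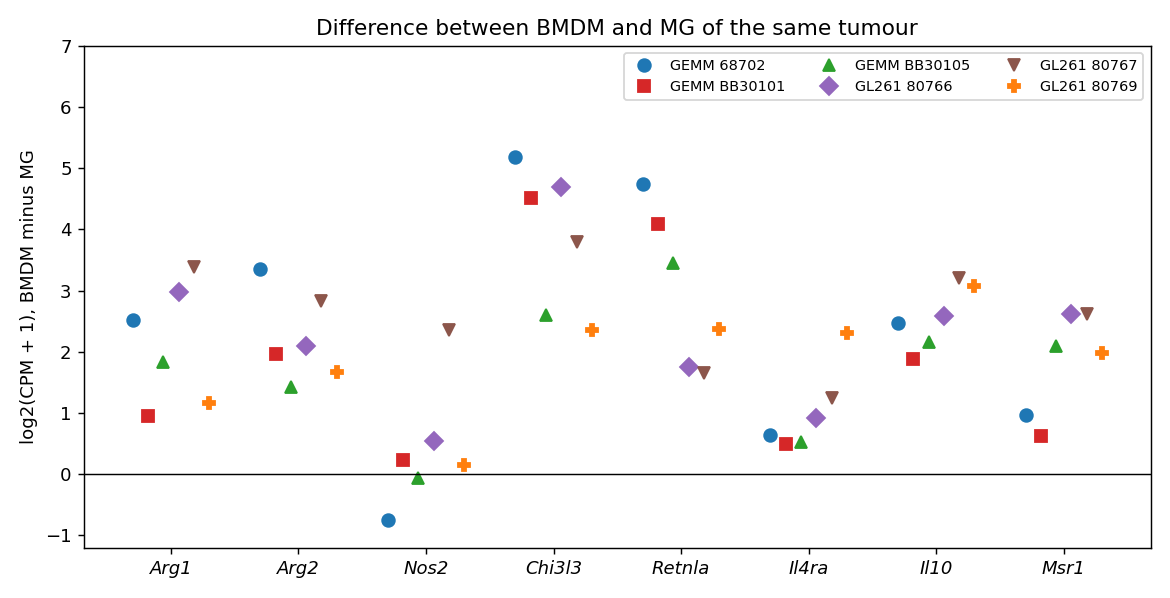
Difference of log2(CPM + 1) between BMDM and MG of the same tumour (vertical axis), for each gene (horizontal axis), with 1 point per tumour and the zero line drawn. All points lie above 0 except for Nos2, where 4 of 6 do; the smallest Arg1 differences belong to tumours BB30101 and 80769.

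Tested over groups with edgeR's quasi-likelihood method on all 20 libraries, which does not use the pairing by tumour, 2 of the 8 genes were called higher in GEMM BMDM than in GEMM MG (adjusted p under 0.05) and none lower. Of all genes tested, 12.7% were called higher and 8.10% lower. The called genes were Arg2 (7.43-fold, log2 2.89 ± 0.73 SE, adjusted p = 0.009) and Il10 (9.10-fold, log2 3.19 ± 0.61, adjusted p = 0.00113). GEMM BMDM 68702, the highest library of its group for both genes (17.2 and 12.5 CPM), had neutrophil markers at 2322 CPM against 277 and 200. Both genes were also called without that library, and the part of these markers was not tested. The call of Arg2 was lost without GEMM MG 68702 or without GEMM MG BB30105. Arg1 was at log2 1.10 ± 1.39 (adjusted p = 0.627), Chi3l3 at 4.63 ± 2.52 (0.215) and Retnla at 4.14 ± 2.47 (0.26), and Chi3l3 and Retnla did not overlap between the groups. The median log2 fold change of the 8 was 2.00, against 0.01 over all genes tested.

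In GL261, 4 of the 8 were called higher in BMDM and none lower, against 10.7% and 6.81% of all genes tested. These were Il10 (17.2-fold, log2 4.10 ± 0.63, adjusted p = 0.000241), Msr1 (5.49-fold, log2 2.46 ± 0.40, adjusted p = 0.000382), Il4ra (2.69-fold, log2 1.43 ± 0.32, adjusted p = 0.0052) and Arg2 (6.80-fold, log2 2.76 ± 0.74, adjusted p = 0.0155). The call of Arg2 was lost without GL261 MG 80766 or without GL261 MG 80767. Arg1 was at log2 1.36 ± 1.40 (adjusted p = 0.531), with Chi3l3 and Retnla at 2.36 ± 2.26 and 2.38 ± 2.26. The median of the 8 was 2.37, against −0.08 over all genes tested. Without tumour 80769 the number called was again 4, with Chi3l3 called (log2 5.46, adjusted p = 0.0214) and Il4ra not (log2 1.08, adjusted p = 0.0539).

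With the tumour number as a replicate block over the 12 tumour libraries, which compares MG and BMDM inside each tumour, the calls of both models grew. In GEMM 6 of the 8 were called higher, against 15.2% of the 14356 genes tested in that fit (10.4% lower). They included Arg1 (3.45-fold, log2 1.79 ± 0.47, adjusted p = 0.0294), Retnla (19.7-fold, log2 4.30 ± 0.40, adjusted p = 0.000576), Chi3l3 (23.7-fold, log2 4.57 ± 0.92, adjusted p = 0.0111) and Msr1 (2.34-fold, log2 1.23 ± 0.29, adjusted p = 0.0204). In GL261 7 of the 8 were called higher, against 13.6% (8.68% lower), with Arg1 at 5.81-fold (log2 2.54 ± 0.49, adjusted p = 0.0111), Chi3l3 at 17.7-fold (log2 4.15 ± 0.93, adjusted p = 0.0193) and Retnla at 7.38-fold (log2 2.88 ± 0.45, adjusted p = 0.00507). Nos2 passed in neither model under either fit, at log2 −0.25 ± 0.47 in GEMM and 1.06 ± 0.46 in GL261 with the block.

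**Figure D3:**
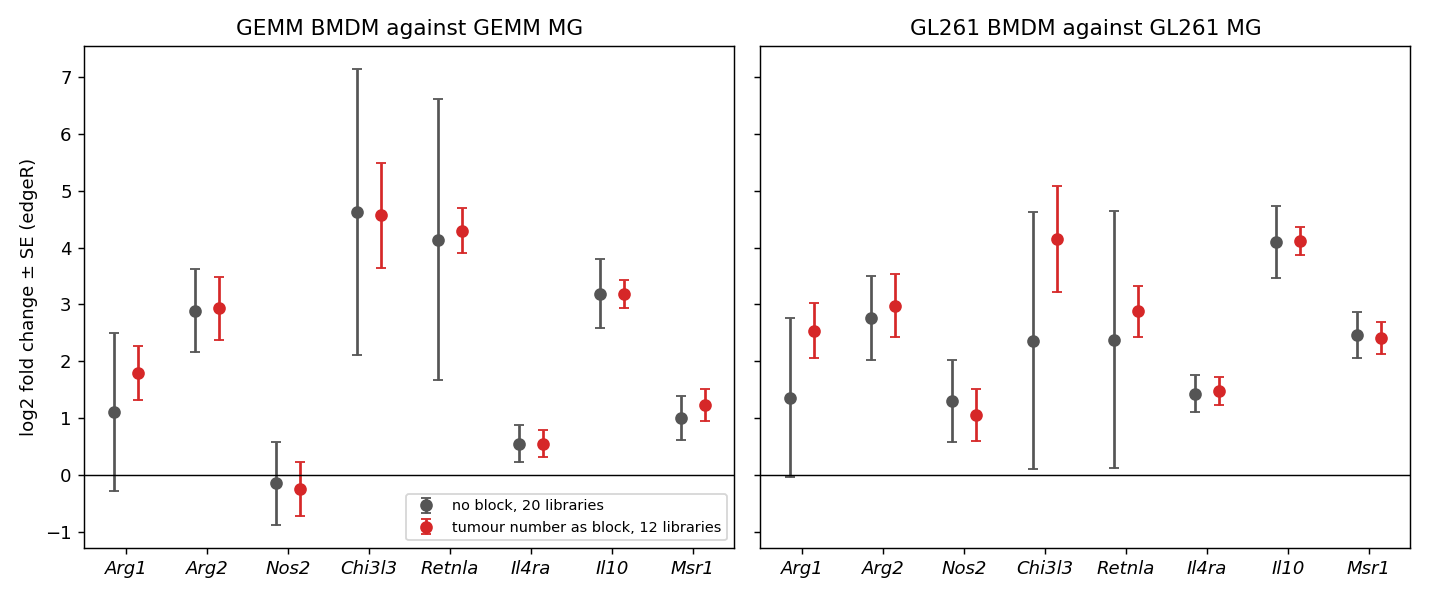
Log2 fold change of BMDM against MG with its SE (vertical axis) for each gene (horizontal axis), in GEMM on the left and GL261 on the right. Grey points are the fit over all 20 libraries without pairing and red points the fit with the tumour number as a block over 12 libraries; for Arg1, Chi3l3 and Retnla the SE falls with the block, from 1.39 to 0.47 for Arg1 in GEMM.

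The difference between the models in this lineage contrast was called for none of the 8 genes by edgeR, with or without the block, or by limma-voom. DESeq2 called none either, but gave no adjusted p for Arg1, Chi3l3 and Retnla. Of all genes tested 0.605% were called in favour of GL261 and 1.02% in favour of GEMM. By edgeR, 1 gene had an unadjusted p under 0.05, Msr1 (log2 1.46 ± 0.54 in favour of GL261, adjusted p = 0.196). Il4ra was at 0.88 ± 0.45 (adjusted p = 0.372).

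The second comparison set microglia of tumours against microglia of normal brain. In GEMM MG 4 of the 8 genes were called higher and none lower, against 23.0% and 20.9% of all genes tested. Msr1 was 17.8-fold higher (log2 4.15 ± 0.44, adjusted p = 1.17e-06), Nos2 24.8-fold (log2 4.63 ± 0.94, adjusted p = 0.000729), Arg1 213-fold (log2 7.73 ± 1.88, adjusted p = 0.00309) and Il10 3.94-fold (log2 1.98 ± 0.67, adjusted p = 0.0229). Without tumour BB30101 Arg1 was at log2 4.79 (adjusted p = 0.0141). Limma-voom called Nos2 and Msr1 but not Arg1 (adjusted p = 0.062) or Il10. Chi3l3, Retnla, Arg2 and Il4ra also lay above all normal MG libraries without passing the test, Il4ra at log2 0.37 ± 0.32. The median log2 fold change of the 8 was 4.39, against −0.02 over all genes tested.

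In GL261 MG 6 of the 8 were called higher and none lower, against 30.6% and 27.2% of all genes tested. Msr1 was 17.5-fold higher (log2 4.13 ± 0.44, adjusted p = 4.63e-07), Nos2 65.6-fold (log2 6.04 ± 0.97, adjusted p = 4.32e-05), Arg1 553-fold (log2 9.11 ± 1.98, adjusted p = 0.000871) and Il10 3.54-fold (log2 1.82 ± 0.67, adjusted p = 0.0266). The calls of Chi3l3 (log2 14.47 ± 4.00) and Retnla (log2 11.03 ± 3.55) rested on tumour 80769. Without it Chi3l3 was at log2 3.30 (adjusted p = 0.246), Retnla at 0.49 (adjusted p = 0.881) and Il10 at 1.46 (adjusted p = 0.11), so 3 calls were left, while Arg1 was at 5.28 (adjusted p = 0.00465). Il4ra was at log2 0.21 ± 0.32 and overlapped normal MG.

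The third comparison set BMDM against blood monocytes, the cells they are taken to come from. In GEMM BMDM 5 of the 8 genes were called higher and 1 lower, against 31.6% and 25.7% of all genes tested. Arg1 was 363-fold higher (log2 8.50 ± 1.58, adjusted p = 0.000223; log2 6.62 and 0.000418 without tumour BB30101), Il10 59.3-fold (log2 5.89 ± 0.71, adjusted p = 1.69e-06), Nos2 6.71-fold (log2 2.75 ± 0.82) and Il4ra 3.02-fold (log2 1.59 ± 0.28, adjusted p = 0.000105). Retnla, at log2 5.54 ± 2.25 (adjusted p = 0.0442), and Arg2, which fell by 1.55 on the log2 scale (SE 0.63, adjusted p = 0.0434), passed narrowly. Arg2 lost its call without monocyte library 64817, where it was at 90.8 CPM against 18.7 to 26.1 in the others. The same held without GEMM BMDM BB30101 or without GEMM BMDM BB30105. Without tumour BB30101 Retnla was at 5.55 (adjusted p = 0.0774), Arg2 at −1.72 (adjusted p = 0.0527) and Nos2 at 1.87 (adjusted p = 0.0756), which left 3 calls. Chi3l3 lay below all monocyte libraries at log2 −3.36 ± 2.26, without passing the test.

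In GL261 BMDM 6 were called higher and 1 lower, against 34.1% and 28.9% of all genes tested. Il4ra was 4.94-fold higher than in monocytes (log2 2.30 ± 0.28, adjusted p = 1.59e-06), Msr1 4.08-fold (log2 2.03 ± 0.33), Nos2 48.4-fold (log2 5.60 ± 0.80), Il10 101-fold (log2 6.65 ± 0.70) and Arg1 1129-fold (log2 10.14 ± 1.66, adjusted p = 5.53e-05). Arg2 fell by 1.96 on the log2 scale (SE 0.65, adjusted p = 0.0139). That call was lost without monocyte library 64817, the highest for Arg2, and without GL261 BMDM 80766. Retnla was called higher at log2 9.39 ± 2.52, though the groups overlapped, and was at 0.20 (adjusted p = 0.89) without tumour 80769. Chi3l3 changed direction with that tumour: it was at log2 2.61 ± 1.90 (adjusted p = 0.242) with it and at −5.44 (adjusted p = 0.00182) without it. Arg1 without it was at 8.18 (adjusted p = 7.03e-05).

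**Figure D4:**
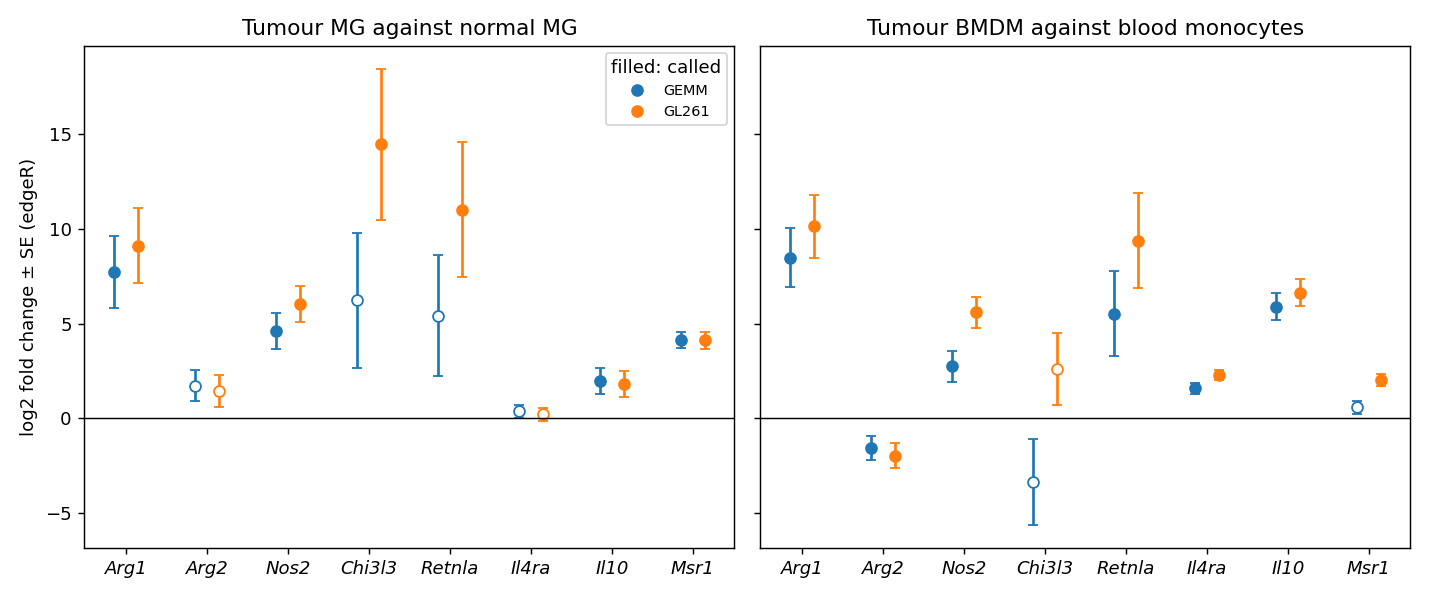
Log2 fold change with its SE (vertical axis) for each gene (horizontal axis), for tumour MG against normal MG on the left and tumour BMDM against blood monocytes on the right, GEMM in blue and GL261 in orange. Filled points were called at an adjusted p under 0.05. Arg2 is the gene called lower, in both BMDM comparisons, a call lost in each without monocyte library 64817. Chi3l3 against monocytes is open on both sides of 0.

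Between the models, few of the 8 genes were called in either lineage. GL261 MG had Chi3l3 called higher than GEMM MG (log2 8.24 ± 2.96, adjusted p = 0.04), against 18.8% of all genes tested called higher and 15.5% lower. The groups overlapped, and without tumour 80769 Chi3l3 was at log2 −2.95 (adjusted p = 0.129). Its call was also lost on leaving out any 1 of the 3 GEMM MG libraries (adjusted p = 0.068 to 0.126), with the sign kept. Without tumour 80769 Retnla was called lower in GL261 MG at log2 −4.93 (adjusted p = 0.0352). GL261 BMDM had Nos2 (7.22-fold, log2 2.85 ± 0.76, adjusted p = 0.0138) and Msr1 (2.71-fold, log2 1.44 ± 0.39, adjusted p = 0.0146) called higher than GEMM BMDM, against 10.2% of all genes tested called higher and 9.46% lower. The call of Nos2 was lost without GL261 BMDM 80767 (log2 1.97, adjusted p = 0.103), GEMM BMDM 68702 (2.63, 0.058) or GEMM BMDM BB30105 (2.42, 0.059), and with the groups compared alone (2.87, 0.0614). That of Msr1 was lost without GL261 BMDM 80766 (1.20, 0.0626) or GEMM BMDM BB30105 (1.21, 0.0709). Retnla in BMDM was at log2 3.86 ± 2.41 (adjusted p = 0.279) with tumour 80769 and called lower in GL261, at −5.32 (adjusted p = 0.0121), without it. Arg1 did not pass in either lineage, at log2 1.38 ± 1.40 in MG and 1.64 ± 1.41 in BMDM, and without tumour BB30101 it was called higher in GL261 MG (log2 4.29, adjusted p = 0.043). That comparison set 34.1 and 60.7 CPM in GEMM MG against 74.8, 62.3 and 2790 in GL261 MG, and with BB30101 kept but tumour 80769 left out Arg1 was at log2 −2.46 (adjusted p = 0.176).

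Arg1 also differed between tumours of 1 model, and the same tumour was highest in both cell types. Tumour BB30101 had the highest Arg1 of the GEMM tumours in MG and BMDM alike, and tumour 80769 that of the GL261 tumours. A list of 21 genes that interleukin 4 induces in macrophages was set beside them. Arg1, Retnla and Chi3l3 are on it. Arg1 and Chi3l3 were highest in both of these tumours, and Retnla in 80769 only. In GEMM, Retnla was highest in BB30105, at 11.2 CPM in MG and 132 in BMDM, against 6.26 and 123 in BB30101. The counts are therefore for the other 18 genes, as a description without a test. In GEMM MG 13 of the 18 were highest in BB30101 and in GEMM BMDM 10 of 18, against 39.8% and 30.4% of all genes tested with a count in the group. In GL261 MG 13 of the 18 were highest in 80769 and in GL261 BMDM 17 of 18, against 45.4% and 38.2%. The same tumour held the highest level in both cell types for 11 of 18 genes in GEMM, against 47.0% of all genes, and for 14 of 18 in GL261, against 47.4%. Ccl24, a chemokine for eosinophils, was at 178 CPM in GEMM MG BB30101 against 15.3 and 21.7 in the other GEMM MG, and at 684 against 51.9 and 68.9 in BMDM. Among GL261 MG it reached 790 CPM in 80769 against 52.1 and 6.77, and in BMDM at 3249 against 440 and 29.9. Mrc1, the mannose receptor, was at 2172 CPM in GL261 BMDM 80769 against 438 and 273, and Ear11, a secreted ribonuclease, at 608 against 1.06 and 0.

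Il4 itself, the ligand, was detected in the same libraries. It was at 44.0 CPM in GEMM BMDM BB30101 against 11.7 (68702) and 1.39 (BB30105), and at 7.14 CPM in GEMM MG BB30101 against 0.345 and 0. In GL261 it was at 13.9 CPM in BMDM 80769 against 1.31 and 2.42, and at 2.13 CPM in MG 80769 against 0 and 0.0442. The tumour with the highest Il4 was thus the one with the highest Arg1 in each of the 4 groups of tumour cells. Mcpt8, a protease of basophils, a cell type that makes interleukin 4, was highest in the same BMDM libraries: 45.8 CPM in GEMM BMDM BB30101 against 13.9 and 1.59, and 15.3 in GL261 BMDM 80769 against 3.28 and 2.37. Mcpt8 was chosen after its values were seen, and the other markers of its list did not all move with it. In GEMM BMDM Cpa3 of mast cells and basophils was highest in BB30101 (19.7 CPM against 9.83 and 3.29), as were Fcer1a and Ms4a2, while the eosinophil markers Prg2 (43.7 CPM against 0.803 and 0.312) and Il5ra (15.2 against 0.636 and 0.242), were highest in 68702. Epx and Ear6 did not exceed 0.470 CPM there. The 8 markers of eosinophils, mast cells and basophils in the table summed to 89.3, 80.0 and 8.07 CPM in GEMM BMDM (68702, BB30101, BB30105) and to 3.93, 4.79 and 19.0 in GL261 BMDM. In MG they reached 10.3 CPM in GEMM BB30101 and no more than 0.337 in GL261, where 7 of the 8 were at 0 in each library. Their part in the result was not tested. Il13, the other ligand, did not exceed 0.469 CPM in any library.

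Other markers moved with tumour 80769 as well. The 7 markers of border-associated macrophages, which share Mrc1 with the interleukin 4 list, summed to 3811 CPM in its BMDM against 623 and 583 in the other GL261 BMDM, and to 764 in its MG against 55.5 and 30.8. Cd163 among them was at 890 CPM in its BMDM against 0.403 and 1.13, while Lyve1 was at 2.79 against 0 and 0. Monocytes summed to 2070 to 2292 CPM for this list, led by F13a1 (1775 CPM in library 64818). Dendritic cell markers, which share Ccl22 with the interleukin 4 list, were at 571 CPM in the BMDM of 80769 against 151 and 91.8. In GEMM BMDM they were higher still, at 629 to 1603 CPM. In tumour 80769 the MG level as a share of the BMDM level varied widely between genes. It was 44.5% for Arg1, 19.5% for Chi3l3, 19.3% for Retnla, 6.53% for Il10 and 20.7% for the monocyte marker sum. For Ccr2, a monocyte marker, it was 14.4%. For Clec10a, Ccl22 and Ccl17 of the interleukin 4 list it was 36.2%, 3.28% and 0.728%. The part of these markers in the values of tumour 80769 was not tested. In BB30101 the border-associated macrophage markers were at 349 CPM in BMDM against 320 and 238, and at 98.6 in MG against 54.3 and 70.1.

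**Figure D5:**
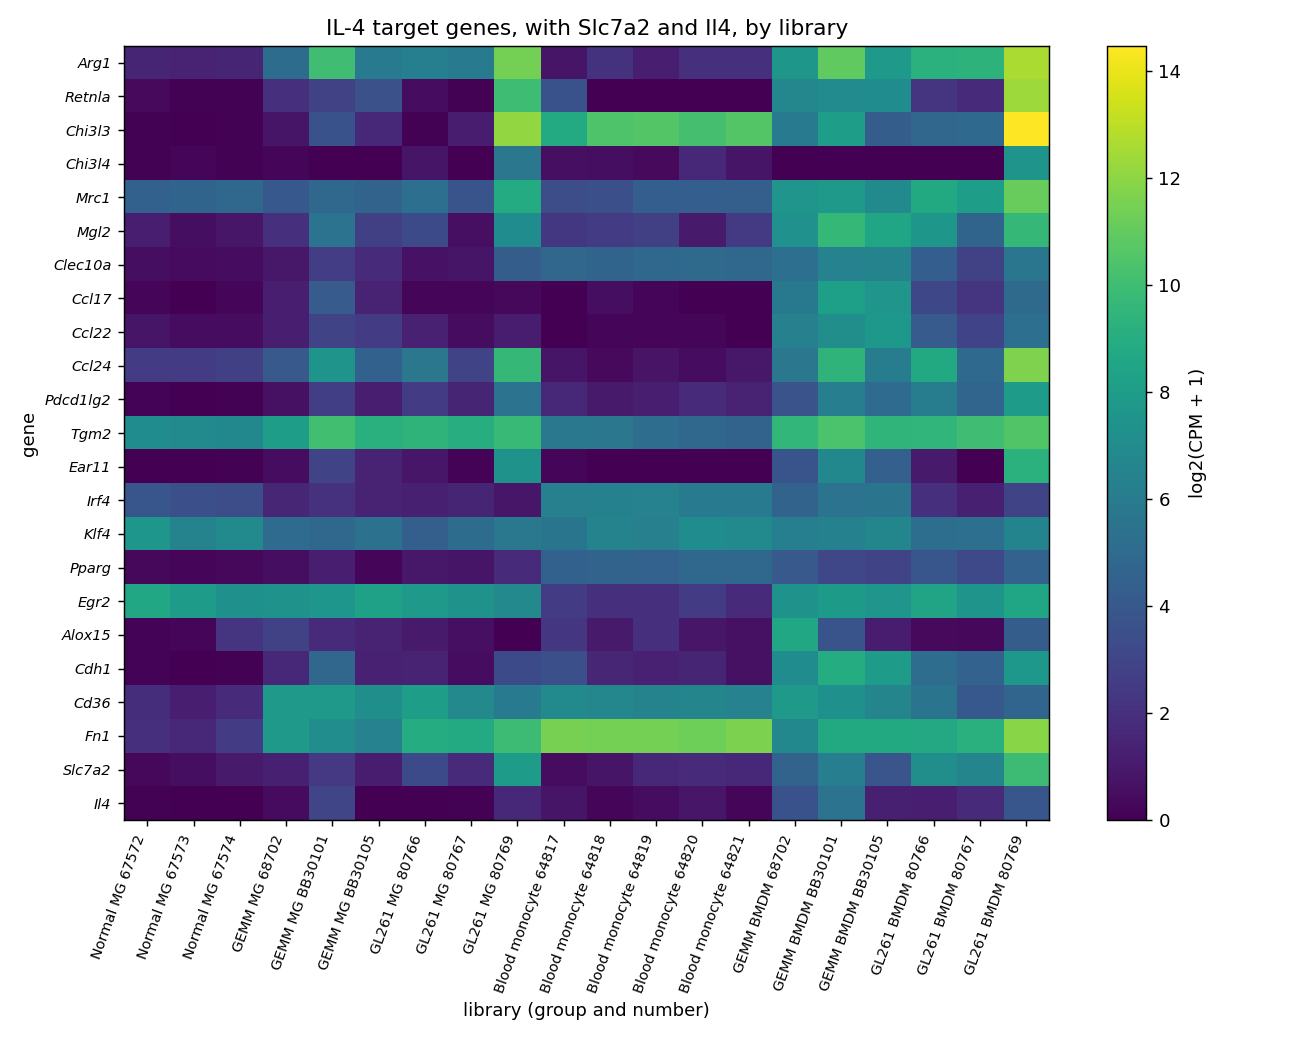
Heat map of log2(CPM + 1), on the colour scale, for the 21 genes of the interleukin 4 list with Slc7a2 and Il4 below them (rows), in the 20 libraries ordered by group (columns). Columns of tumour BB30101 and above all of tumour 80769 are brighter than their neighbours for many rows in MG and in BMDM, while Chi3l3 and Fn1 are bright in monocytes too.

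Over groups, 11 of the 21 genes of the interleukin 4 list were called higher in GEMM BMDM than in GEMM MG and none lower, against 12.7% and 8.10% of all genes tested, with a median log2 fold change of 3.87 against 0.01 over all genes. They include Irf4, a transcription factor of this state (16.9-fold), Ccl22, a chemokine for T cells (33.0-fold), and Pparg, a lipid-sensing nuclear receptor (14.2-fold). Without tumour BB30101 the number called was 7, and with the replicate block 15. In GL261 5 were called higher, against 10.7% of all genes (6.81% lower), Ccl22 (19.0-fold), Pparg (10.4-fold) and Ccl17 (66.3-fold) among them, and Cd36, a receptor for fatty acids, was called lower in BMDM (log2 −2.38 ± 0.48). The number called was 10 without tumour 80769 and 14 with the replicate block, against 6 in all. Against normal MG, 10 were called higher and 2 lower in GEMM MG, and 15 higher and 2 lower in GL261 MG, the latter falling to 8 called without tumour 80769. The shares of all genes there were 23.0% higher and 20.9% lower in GEMM MG, and 30.6% and 27.2% in GL261 MG. Cd36 and Fn1 (fibronectin) rose in both (Cd36 89.3-fold and 68.7-fold, Fn1 43.1-fold and 185-fold), and Irf4 and Klf4, transcription factors that promote alternative activation, fell in both (Irf4 by 2.33 and 3.06, Klf4 by 1.95 and 1.91 on the log2 scale). Against monocytes, GEMM BMDM had 13 of the 21 called higher and 3 lower, and GL261 BMDM had 13 and 2, against 31.6% and 25.7% of all genes in GEMM and 34.1% and 28.9% in GL261.

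Of the 12 genes of the receptor and its signalling, 10 were tested. Il2rg, the common gamma chain that pairs with the Il4ra product, was higher in BMDM than in MG in GEMM (2.51-fold) and GL261 (2.28-fold), as was Irs2, an adaptor of the receptor (log2 1.32 ± 0.24 and 1.52 ± 0.24). In GEMM 2 of the 10 were called higher, near the 12.7% of all genes, in GL261 5, against 10.7%, and none lower. Without tumour 80769 the number called in GL261 was 3, where 1364 of 15828 genes were called higher and 873 lower. With the replicate block 5 and 8 were called, against 15.2% and 13.6% of all genes higher and 10.4% and 8.68% lower. Against normal MG, Il2rg was 14.2-fold higher in GEMM MG and 15.8-fold higher in GL261 MG. In GL261 MG Jak1, a kinase of the receptor, Il13ra1, its partner chain, and Stat6 were called lower, by log2 −1.49 ± 0.18, −1.67 ± 0.26 and −1.01 ± 0.23. In GEMM MG Jak1 and Socs1, an inhibitor of the pathway, were called lower, and Il4 was called higher (log2 5.59 ± 1.96, adjusted p = 0.0281) with groups that overlapped. Over the list 3 genes were called higher and 2 lower in GEMM MG, and 1 and 3 in GL261 MG, against 23.0% and 20.9% of all genes in GEMM MG and 30.6% and 27.2% in GL261 MG.

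Of 30 genes of arginine uptake and metabolism, Arg1, Arg2 and Nos2 included, 26 were tested. Ass1, which with Asl makes arginine anew from citrulline, was listed at 0 in 19 of 20 libraries. Slc7a2, a transporter that imports arginine, was at 23.2, 72.0 and 13 CPM in GEMM BMDM against 1.38, 4.20 and 1.11 in GEMM MG (15.6-fold, log2 3.96 ± 1.35, adjusted p = 0.0455). In GL261 it was at 143, 95.7 and 987 CPM in BMDM and 8.40, 2.30 and 242 in MG, highest in tumours BB30101 and 80769 as Arg1 was. Slc7a1, the other main importer, rose in MG of both models against normal MG, 3.42-fold in GEMM (log2 1.78 ± 0.35) and 10.4-fold in GL261 (log2 3.38 ± 0.37). Odc1, the enzyme that turns the ornithine made by arginase into putrescine, was at 376, 261 and 395 CPM in GL261 MG against 110, 71.2 and 72.8 in normal MG (4.06-fold, log2 2.02 ± 0.23, adjusted p = 8.52e-07). Odc1 fell by 0.74 on the log2 scale in GL261 BMDM against MG (adjusted p = 0.0253), the opposite direction to the differences of Arg1. Ddah2, which breaks down an inhibitor of nitric oxide synthase, was lower in BMDM than in MG in GEMM (log2 −1.75 ± 0.35) and GL261 (log2 −1.69 ± 0.36). Over the list, 3 genes were called higher and 2 lower in GEMM BMDM, 4 and 2 in GL261 BMDM, 9 and 2 in GEMM MG and 13 and 5 in GL261 MG. The shares of all genes called higher and lower were 12.7% and 8.10%, 10.7% and 6.81%, 23.0% and 20.9%, and 30.6% and 27.2% in the same order, so the GEMM BMDM counts were near the background. With the replicate block 9 were called in GEMM BMDM and 11 in GL261 BMDM, against 15.2% and 13.6% of all genes higher and 10.4% and 8.68% lower.

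Of 16 genes of classical activation, Nos2 included, Cybb, a subunit of the NADPH oxidase, was higher in BMDM than in MG (7.40-fold in GEMM, 3.79-fold in GL261), and Tnf, a cytokine of inflammation, was lower (5.66-fold and 6.03-fold, with overlapping groups in GL261). In GEMM BMDM 1 gene was called higher and 1 lower, against 12.7% and 8.10% of all genes, and in GL261 BMDM 5 and 1, against 10.7% and 6.81%. The replicate block gave 5 called in GEMM, against 15.2% of all genes higher and 10.4% lower. Against normal MG 11 of 16 were called higher in GEMM MG and 9 in GL261 MG, with 1 and 2 lower, beside 23.0% and 30.6% of all genes higher and 20.9% and 27.2% lower. Cxcl9, a chemokine induced by interferon gamma, was 541-fold higher in GL261 MG (log2 9.08 ± 1.05), and Il1b 32.3-fold higher in GEMM MG (log2 5.01 ± 0.60). In tumour 80769, where Arg1 was highest, 13 of the 16 genes were at their lowest of GL261 MG, against 38.3% of all genes, and 12 of 16 at their lowest of GL261 BMDM, against 37.4%. In its MG Cxcl9 was at 34.8 CPM against 128 and 114, and Tnf at 20.8 CPM against 302 and 191. Nos2, at 16.4 CPM against 5.70 and 8.84, was 1 of 2 genes of the list highest in that library. The low levels in this MG library were not particular to classical activation. It was also lowest for 9 of 10 genes of interleukin 4 and 13 receptors and signalling, and for 11 of 13 of the interleukin 10 pathway. In GL261 BMDM 80769 was lowest for 5 of 10 and 5 of 13 of these.

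Around Il10, 6 of 13 genes of its pathway were called higher in GEMM BMDM than in MG and 8 in GL261, with none lower, against 12.7% and 10.7% of all genes higher and 8.10% and 6.81% lower. Nfil3, a transcription factor induced by interleukin 10, was 3.72-fold higher in GEMM (log2 1.90 ± 0.27) and 4.26-fold higher in GL261 (log2 2.09 ± 0.27). In MG against normal MG the receptor chain Il10ra fell, narrowly in GEMM (adjusted p = 0.05), at 578, 413 and 656 CPM in GEMM and 567, 444 and 58.9 in GL261 against 1417, 1400 and 1171 (log2 −1.28 ± 0.51 and −1.90 ± 0.52), and Il1rn, which encodes the antagonist of the interleukin 1 receptor, rose 107-fold and 98.2-fold. Of 19 scavenger receptor genes 18 were tested, of which 3 were called higher and 2 lower in GEMM BMDM, near the same shares of all genes, and 6 and 1 in GL261 BMDM. Cxcl16, which is both a chemokine and a scavenger receptor, was higher in BMDM of both models (2.87-fold and 3.26-fold), Stab2 and Mrc1 in GEMM (45.6-fold and 7.83-fold), and Scarf1 in GL261 (7.53-fold).

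The genes whose levels over the 20 libraries were most like each member were found by Pearson's r of log2(CPM + 1), a description in which the libraries of 1 group or tumour are not independent. Nearest to Arg1 were Mmp12, macrophage elastase (r = 0.98), Tmbim1 (0.96), Mrps36 (0.96), Ccl8, a chemokine (0.96), and Churc1 (0.95). Mmp12 was at 400 CPM in GEMM MG BB30101 against 39.2 and 24.1 and at 398 in GL261 MG 80769 against 8.40 and 24.7, and did not exceed 2.42 CPM in normal MG or 1.19 in monocytes. Ccl8 was at 17596 CPM in GL261 BMDM 80769 against 503 and 364, and at 3306 in GL261 MG 80769 against 89.8 and 37.9. Nearest to Retnla was Ear11 (0.95), nearest to Chi3l3 Fabp4, a fatty acid carrier (0.95), and nearest to Nos2 Saa3, an acute-phase protein (0.91). Nearest to Arg2 was Ptger2, a prostaglandin receptor (0.97), to Il4ra Ets2 (0.93), to Il10 Pdgfc (0.94) and to Msr1 Ikbke (0.95). Among the members themselves, over the 12 tumour libraries, r was 0.90 for Arg1 with Chi3l3, 0.91 for Chi3l3 with Retnla and 0.72 for Arg1 with Retnla, against 0.32 for Arg1 with Il4ra and 0.55 for Arg1 with Nos2. Over all 20 libraries r was 0.20 for Arg1 with Chi3l3, monocytes being high in Chi3l3 and low in Arg1.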

How the data were processed

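RNA of sorted cells was made into libraries with a Smart-Seq kit, per the labels' protocols. The values are raw counts per gene symbol as deposited by the authors, whole numbers whose totals differ between libraries. The submitters' processing notes list mm10 as the build, with HTSeq, STAR 2.5.0e, CASAVA 1.8 and DESeq2 as tools and no roles; annotation and strand setting are unstated in the sources used here. Groups and numbers came from the titles. Whether the libraries are separate animals is not stated beyond the matched tumours, and if they are not, p-values measure only the spread between samples.

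Genes were kept by filterByExpr (at least 10 counts, total at least 15), library sizes were adjusted with TMM factors, and edgeR 4.0.16 (R 4.3.3) fitted its robust quasi-likelihood model over all 20 libraries and 6 groups, for 9 comparisons. A gene was called where p, adjusted by Benjamini-Hochberg across the 15363 genes tested, was under 0.05. The SE of a log2 fold change is its size divided by the root of the F statistic. The pseudocount on the log2 scale was 1 CPM. Coordinates and exon lengths are from GENCODE vM21 on GRCm38, the assembly behind mm10. The analysis was tested on simulated counts. Chi-square per degree of freedom between libraries of a group was 3.20 or more, so none repeated the counts of another. It was 3.20 for monocytes 64818 and 64819 and 4.28 for 64820 and 64821, against 19.0 or more for other pairs. Neutrophil marker sums were also close within these monocyte pairs, at 22993 and 25644 CPM and at 2227 and 2192 CPM. Whether the libraries of such a pair share an animal or pool was not tested, so the monocyte libraries may not all be independent.

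The study's description pairs MG and BMDM by tumour. In deviations from the group means, across genes, r between same-numbered libraries was 0.28 to 0.38 for GEMM tumours and 0.35 to 0.51 for GL261 tumours, and no more than 0.14 between other numbers, so the number was used as a block in an alternative fit. Other alternatives were DESeq2 1.42.0, DESeq2's size factors in edgeR, limma-voom (limma 3.58.1), no filter, leaving out Rn45s, fitting only the groups compared and leaving out each library. Leaving out both libraries of tumour 80769 or BB30101 was chosen after seeing the data.

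The 8 genes, 6 pathway lists and 15 marker lists were chosen with earlier results of these data known. Named besides the 8 are up to 3 called genes per list and direction with the smallest p, and for each member the 3 genes (5 for Arg1) with the highest r among tested genes at 5 CPM or more in 1 group mean. Slc7a2, Mrc1, Ccl24, Ear11, Il4, Il13, Ass1, Chi3l4, Cd163, Mcpt8, and some values of Cxcl9, Tnf, Odc1 and Il10ra by library, fall outside that rule in places; those were picked with their values in view.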

Additional observations from a re-analysis of the deposited data

Results flagged for a closer look

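The 8 genes were examined for single libraries far from the rest in the monocyte group, the group with more than 3 libraries, and 3 of 8 stood out. In each case it was monocyte library 64817, the highest of the 5. Its gap to the next library, as a share of the group's range, was 0.899 for Arg2 (90.8 CPM against 18.7 to 26.1), 1.00 for Retnla (11.6 CPM against 0 in the other 4) and 0.811 for Il4ra (346 CPM against 118 to 161). The same library had the highest sums of B cell markers (660 CPM against 79.2 to 259) and NK cell markers (202 CPM against 48.7 to 95.1), and its neutrophil marker sum of 11888 CPM lay inside the range of the others. The part of these markers in the 3 values was not tested. The share of all genes that the same rule marks was not computed, so 3 of 8 has no background to be set against. A gene counted in only 1 library has a gap of 1.00 whatever its level, as Retnla had.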

How the results depend on the processing

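Of 1035 member fold changes under the alternatives, 893 kept their direction and their side of the threshold, 53 changed sign without passing it in either fit, 60 no longer passed, 24 newly passed and 5 reversed. The 5 reversed values all came from leaving out libraries of tumour 80769: Chi3l3 at log2 −5.44 in GL261 BMDM against monocytes, Chi3l3 at −2.95 (−2.94 without its MG library alone) and Retnla at −4.93 in GL261 MG against GEMM MG, and Retnla at −5.32 in GL261 BMDM against GEMM BMDM. Leaving out 1 library at a time, Chi3l3 in GL261 MG against GEMM MG ranged from −2.94 to 9.80. DESeq2 gave no adjusted p for Arg1, Chi3l3 and Retnla in any comparison, so its counts cover the other 5 genes.

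The number of the 8 genes called in GEMM BMDM against MG was 2, and became 4 with the groups compared alone, 6 with the replicate block and 1 to 3 without 1 library. With the groups compared alone 1679 of 13633 genes were called higher and 1272 lower. In GL261 the number of the 8 called was 4. It became 7 with the replicate block and 3 to 7 without 1 library, the 7 without GL261 MG 80769. For the difference between models it was 0, with 0 to 1 without 1 library, the 1 being Msr1 without GEMM MG BB30105. For GEMM MG against normal MG it was 4, with 2 in limma-voom and 8 with the groups compared alone. Limma-voom kept Nos2 and Msr1, without Arg1 and Il10, and called 3507 of 15363 genes higher and 3776 lower. With the groups compared alone 4170 of 13307 genes were called higher and 3916 lower. For GL261 MG against normal MG the number of the 8 called was 6. It was 3 in DESeq2, 3 in limma-voom, 3 without tumour 80769 and 3 to 6 without 1 library. Of 15363 genes, DESeq2 called 5125 higher and 4105 lower, and limma-voom 4664 and 4686. For GEMM BMDM against monocytes the number of the 8 called was 6, with 3 without tumour BB30101 and 3 to 5 without 1 library. Retnla in that comparison lost its call on leaving out any 1 of 7 of the 8 libraries compared, in limma-voom and without the filter. For GL261 MG against GEMM MG it was 1, with 0 in DESeq2, limma-voom, without the filter and with the groups compared alone, and 0 to 1 without 1 library. For GL261 BMDM against GEMM BMDM it was 2, with 0 to 2 without 1 library, the 0 without GEMM BMDM BB30105. The causes were not tested. With the replicate block no other call of the 8 genes changed. Of the list counts not given with the block above, that of the interleukin 10 pathway went from 6 to 8 in GEMM and 8 to 7 in GL261, of scavenger receptors from 5 to 6 and 7 to 9, of classical activation in GL261 from 6 to 7, and of interleukin 4 targets in the difference between models from 1 to 0. Without the filter the median log2 fold change of all genes in GL261 BMDM against monocytes moved from 0.06 to −0.19. Depth limits Il10, Retnla and Nos2 in monocytes, where a count of 0 allows up to 0.377 to 0.619 CPM.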
